A study of Mus musculus with 14 samples.

Results

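The 8 genes described here, *Srebf2*, *Scap*, *Insig1*, *Hmgcs1*, *Idi1*, *Fdft1*, *Sqle* and *Lss*, encode regulators and enzymes of cholesterol synthesis, and were taken by name from a list chosen for that pathway. They are 8 of the 52459 genes in the count tables, and all 8 are among the 11869 genes with a mean level of at least 1 FPKM (counts scaled to exon length and library sum) at 0 h. On mm10, *Srebf2* lies at chr15:82147266-82205376, *Scap* at chr9:110333288-110384950, *Insig1* at chr5:28071363-28078662, *Hmgcs1* at chr13:119690379-119708260, *Idi1* at chr13:8885501-8892451, *Fdft1* at chr14:63145150-63179578, *Sqle* at chr15:59315077-59331192 and *Lss* at chr10:76531588-76557138, all on the plus strand but *Fdft1*. None of the 8 encodes a receptor for sterol uptake, so the members cover synthesis and its control, while genes of sterol uptake stand in a separate list.

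Cells make cholesterol from acetyl-CoA through the mevalonate pathway, and the supply of its enzymes is set by the transcription factor SREBP2. The product of *Srebf2* is made as a membrane-bound precursor, which SCAP escorts from the endoplasmic reticulum to the Golgi for cleavage when sterols are scarce. When sterols are plentiful, INSIG1 holds SCAP back, and *Insig1* is itself a target gene of SREBP2, so the pathway carries its own brake. The mark N6-methyladenosine (m6A) is placed on RNA by METTL3 with its partner METTL14 and is known to shorten the life of many transcripts.

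The study compared E14Tg2a mouse embryonic stem cells (mESCs) of 2 genotypes, WT and METTL14 R255K, a knock-in by CRISPR-Cas9 that puts lysine in place of a methylated arginine of METTL14. The knock-in line was grown from isolated colonies, so the genotype and the clone cannot be told apart. RNA was sequenced at 0, 4 and 8 h of 5 µg/ml actinomycin D, which blocks transcription, from 1 library per genotype and time, and untreated cells of both genotypes gave an m6A peak list each from 2 IP and 2 input MeRIP-seq libraries. With 1 library in each group there is no replicate check and no test, and a ratio is called only when it is past 1.5 or under 1/1.5.

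The 6 libraries summed to between 13812160 and 18813640 counts. Intervals below are 95% intervals from the counts and cover counting error only. All 7 mESC markers examined, *Pou5f1* and *Nanog* among them, stood between 173 and 878 FPKM in WT and between 80.4 and 593 FPKM in R255K cells at 0 h. For *Mettl14* the libraries held 681, 376 and 232 counts over time in WT against 299, 280 and 209 in R255K cells, and gene counts cannot show the edited codon. *Gapdh*, a common reference gene, ran 995, 242 and 2357 counts in WT against 331, 787 and 1875 in R255K cells and was not used for scaling. Markers of other cells were low but not equal between genotypes at 0 h. Summed over the list, 4 fibroblast markers reached 2.11 FPKM in WT (1 of 4 at 1 FPKM or more) and 6.89 FPKM in R255K cells (3 of 4), and 3 ectoderm markers 16.5 and 9.27 FPKM (3 of 3 in both). Endoderm markers summed to 5.37 and 5.16 FPKM (2 and 3 of 4), and mesoderm markers to 0.749 and 2.36 FPKM (0 and 1 of 3). Their part in the results was not tested. At 0 h the ratio between the genotypes moved with GC content, and which library carries the trend was not tested. With the genes in 4 groups of equal size by exon GC content, the median ratio of R255K over WT was 0.725 in the GC-poorest group and 1.02, 1.15 and 1.24 in the others. In bulk RNA, fewer cells expressing a gene and less RNA per cell cannot be told apart.

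Ordered by level per listed exon length, *Srebf2* led in all 6 libraries and *Hmgcs1* came next in all 6. In R255K cells at 0 h the counting intervals of *Hmgcs1* and *Fdft1* overlapped. For some genes the listed length far exceeds that of 1 transcript, at 5546 bp against 2758 nt for *Sqle* and 10787 bp against 4667 nt for *Lss*. The order by transcript length was not tested. In WT cells at 0 h the order was *Srebf2* (59.2 FPKM), *Hmgcs1* (40.0), *Insig1* (24.6), *Fdft1* (20.6), *Sqle* (19.9), *Idi1* (15.0), *Lss* (7.31) and *Scap* (5.47). In that library only *Fdft1* and *Sqle* were neighbours whose counting intervals overlapped. By 8 h the order in WT cells had *Sqle* last (1.41 FPKM) and *Insig1* next to last (4.12 FPKM). In R255K cells at 8 h *Sqle* was again last (4.84 FPKM), but *Insig1* (17.2 FPKM) kept company with *Idi1* (18.2 FPKM), with overlapping intervals.

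**Figure D1:**
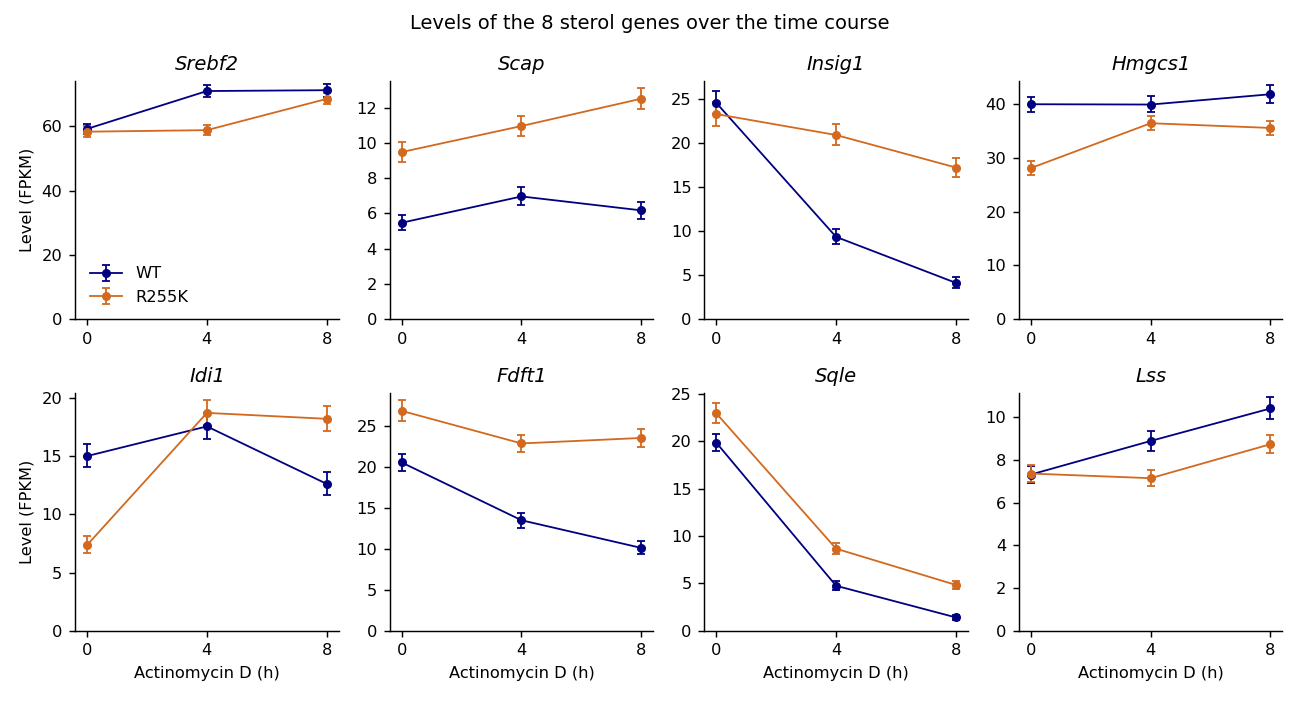
Levels in FPKM (vertical axes, each from 0) of the 8 genes at 0, 4 and 8 h of actinomycin D in WT (blue) and R255K (orange) cells, 1 library per point, with 95% Poisson intervals of the counts. *Insig1* ends at 4.12 FPKM in WT and 17.2 FPKM in R255K cells, and *Idi1* starts at 15.0 FPKM in WT and 7.37 FPKM in R255K cells.

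The first question was how the 8 transcripts stood before transcription was blocked. Of the 8, *Scap* alone was over 1.5 times as high in R255K as in WT cells, where 20.8% of all genes tested were, and *Idi1* alone was under 1/1.5, where 19.5% were. The median ratio over the 8 was 0.996, against 1.04 over all genes tested. The members thus divided about as all genes did.

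Among the regulators, *Srebf2* had 5148 counts in WT and 4552 in R255K cells at 0 h, a ratio of levels of 0.985 (interval 0.947 to 1.03). *Scap*, the escort, had 709 counts in WT and 1103 in R255K cells, a ratio of 1.73 (1.58 to 1.91). This difference exceeded counting error, and *Scap* lies in the GC-richest group, whose median ratio was 1.24. Corrected for the GC trend the ratio of *Scap* was 1.47, no longer past 1.5. *Insig1*, the brake, had 1324 and 1127 counts, a ratio of 0.948 (0.875 to 1.03) whose interval holds 1.

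With summed counts the mevalonate enzymes had the lowest ratios of R255K over WT among the 8 at 0 h. *Hmgcs1*, which makes HMG-CoA, had 3206 counts in WT and 2022 in R255K cells, a ratio of 0.703 (0.664 to 0.743). *Idi1*, which isomerises isopentenyl diphosphate, had 917 and 404 counts, a ratio of 0.491 (0.436 to 0.552). Both genes lie in the GC-poorest group (42.1% for *Hmgcs1* and 41.5% for *Idi1*), where the median ratio was 0.725. With the GC trend removed the ratios were 0.902 and 0.651, so *Idi1* stayed under 1/1.5, while *Hmgcs1* was then above *Srebf2* (0.804). The part of the GC trend in these values was not tested further.

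The enzymes committed to sterols lay close to or above WT. *Fdft1*, squalene synthase, had 1515 counts in WT and 1776 in R255K cells, a ratio of 1.31 (1.22 to 1.40). *Sqle*, squalene epoxidase and a rate-limiting step of the branch, had 1920 and 1992 counts, a ratio of 1.16 (1.09 to 1.23). *Lss*, lanosterol synthase, had 1374 and 1241 counts, a ratio of 1.01 (0.931 to 1.09). *Fdft1* shares 774 bp of exon (18.3% of its exon length) with *Ctsb* on the other strand, and whether the counting used strand is not given in the sources used here. *Ctsb* itself had 2171, 2659 and 3051 counts in WT against 1873, 2839 and 3581 in R255K cells. Whether reads of *Ctsb* add to the counts of *Fdft1* was not tested.

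**Figure D2:**
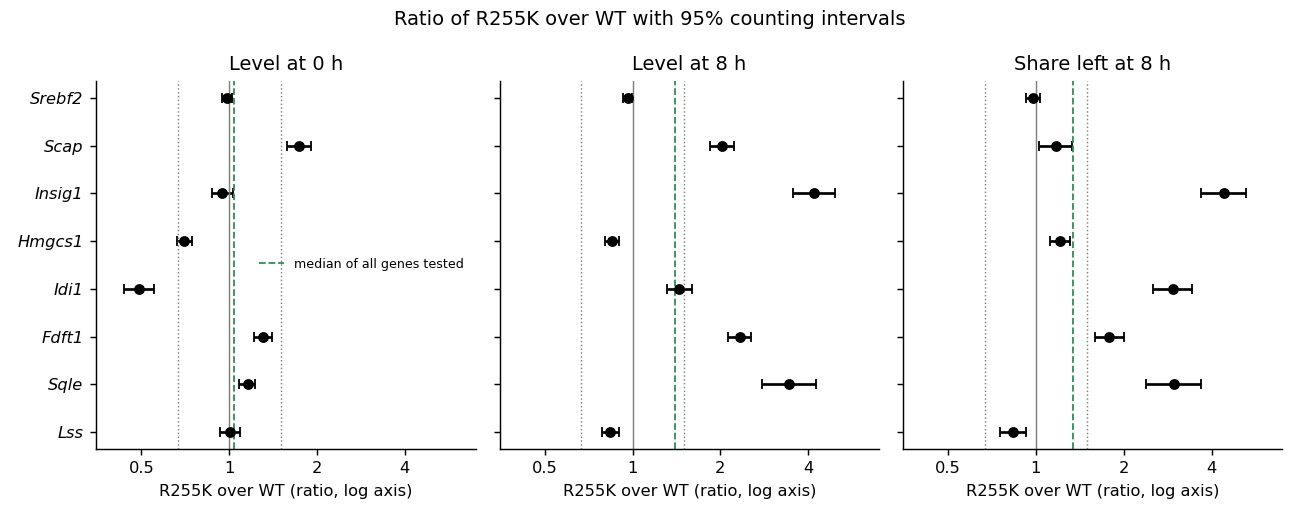
Ratio of R255K over WT (horizontal log axes) for the level at 0 h, the level at 8 h and the share of the 0 h level left at 8 h, each point 1 gene with its 95% counting interval. The dashed line is the median of all genes tested, and dotted lines mark 1.5 and 1/1.5. *Insig1* has a ratio of 0.948 at 0 h and 4.18 at 8 h.

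The time course asked how much of each transcript remained once transcription was blocked. The members differed widely in the share left. In WT cells 3 of the 8, *Insig1*, *Sqle* and *Fdft1*, were under 1/1.5 of their 0 h level at 8 h, where 50.3% of all genes were, and the same 3 were so at 4 h (36.9% of all genes). In WT cells 0 were over 1.5 times their 0 h level at 4 h (9.4% of all genes) or at 8 h (19%). In R255K cells only *Sqle* was under 1/1.5, both at 4 h (22.4% of all genes) and at 8 h (32%), and only *Idi1* was over 1.5, at 4 h (8.72%) and at 8 h (7.38%).

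At 0, 4 and 8 h *Insig1* had 1324, 433 and 176 counts in WT against 1127, 1203 and 1002 in R255K cells. The share of the 0 h level left at 8 h was 16.8% (interval 14.3 to 19.6) in WT and 73.9% (67.8 to 80.6) in R255K cells. Relative to the library sum, the *Insig1* transcript thus fell quickly in WT cells and mostly remained in R255K cells. The ratio of the shares was 4.41 (3.69 to 5.27). These are RNA levels, and INSIG1 protein and SREBP2 activity were not tested.

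*Sqle* had 1920, 395 and 108 counts in WT against 1992, 894 and 505 in R255K cells. It was the member with the least left in both genotypes, at 7.10% (5.79 to 8.62) in WT and 21.1% (19.1 to 23.3) in R255K cells at 8 h. The ratio of the shares was 2.97 (2.39 to 3.69).

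*Fdft1* had 1515, 855 and 591 counts in WT against 1776, 1799 and 1873 in R255K cells. At 8 h 49.2% (44.7 to 54.2) was left in WT and 87.7% (82.1 to 93.6) in R255K cells, a ratio of 1.78 (1.59 to 2.00). This ratio was above 1 under every scaling tried, but 1.30 with TMM factors and 1.29 with the median of ratios, both under 1.5.

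*Idi1* had 917, 922 and 611 counts in WT against 404, 1220 and 1201 in R255K cells. Its level at 8 h was 84.1% of that at 0 h in WT and 247% in R255K cells, a ratio of 2.94 (2.53 to 3.42). In R255K cells the 0 h library stood apart from the later pair, which differed little from each other (18.7 and 18.2 FPKM). A share over 100% cannot come from decay alone. Levels are relative to the library sum. With the GC trend removed the ratio was 1.74.

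Relative to the library sum, the other 4 transcripts ended above their 0 h level in both genotypes. *Srebf2* had 5148, 5306 and 4909 counts in WT against 4552, 5457 and 6433 in R255K cells, and its level at 8 h was 120% of that at 0 h in WT and 117% in R255K cells. *Hmgcs1* had 3206, 2752 and 2659 counts in WT against 2022, 3119 and 3079 in R255K cells, ending at 105% and 127% of 0 h. *Lss*, with 1374, 1435 and 1550 counts in WT against 1241, 1432 and 1771 in R255K cells, ended at 142% and 119%. *Scap*, with 709, 776 and 634 counts in WT against 1103, 1516 and 1751 in R255K cells, ended at 113% and 132%. None of these 4 was past 1.5 or under 1/1.5 of its 0 h level in either genotype.

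Set over WT, the share left at 8 h was over 1.5 for 4 of the 8 genes, *Insig1*, *Sqle*, *Idi1* and *Fdft1*, where 44.5% of all genes tested were, and under 1/1.5 for 0, where 9.29% were. At 4 h it was over 1.5 for 3 of the 8, *Insig1* (2.36), *Idi1* (2.17) and *Sqle* (1.58), where 31.9% of all genes were, and under 1/1.5 for 0 (6.54%). The count of members was thus near that of all genes. For *Hmgcs1*, *Scap*, *Srebf2* and *Lss* the ratio at 8 h was 1.21, 1.17, 0.977 and 0.834, and for each of these the direction turned under at least 1 other scaling. The median of all genes was 1.34 with summed counts and 0.976 with TMM factors, where 31.8% of all genes were over 1.5 and 28.3% under 1/1.5.

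Relative to that median, which a scaling of whole libraries does not move, *Insig1* was 3.30 times higher, *Sqle* 2.23 times, *Idi1* 2.20 times and *Fdft1* 1.33 times. On the same scale *Hmgcs1* was at 0.906, *Scap* at 0.876, *Srebf2* at 0.732 and *Lss* at 0.624. With the GC trend removed the values were 3.25 for *Insig1*, 2.20 for *Sqle*, 1.64 for *Idi1* and 1.51 for *Fdft1*. They were 0.70 for *Hmgcs1*, 0.99 for *Scap*, 0.83 for *Srebf2* and 0.65 for *Lss*. In the GC-poorest group, which holds *Hmgcs1* and *Idi1*, the median ratio of shares with summed counts was 1.96. Of all genes tested 10.4% had a higher ratio of shares left than *Insig1*, 19.8% a higher one than *Sqle* and 77.2% a higher one than *Lss*. This measure was chosen after seeing the data, because 5 of the 8 genes give no half-life.

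**Figure D3:**
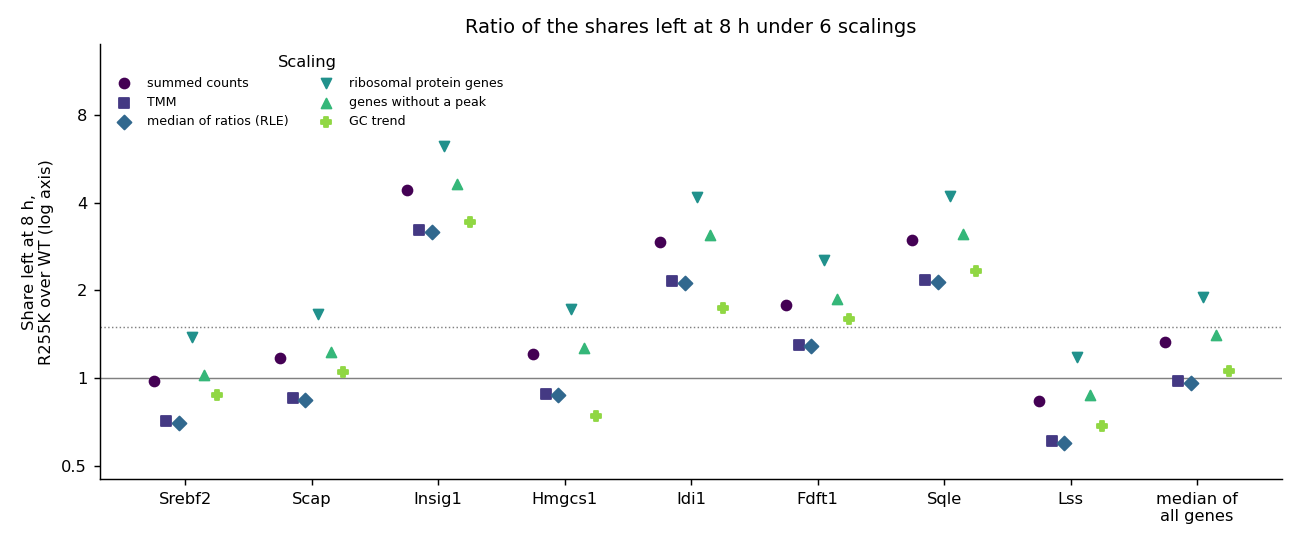
Ratio of the share left at 8 h, R255K over WT (vertical log axis), for each gene and for the median of all genes tested, under 6 scalings of the libraries given by marker and colour. The solid line marks 1 and the dotted line 1.5. *Insig1*, *Sqle* and *Idi1* lie above the dotted line under all 6, from 3.18 to 6.27 for *Insig1*.

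The loss in WT cells and the ratio of shares both rest on the WT 0 and 8 h libraries and are not independent. Of the 5961 genes under 1/1.5 of their 0 h level at 8 h in WT cells, 81.7% had a ratio of shares over 1.5, with a median of 2.44. All 3 members among them did, *Insig1* above that median, *Sqle* above it and *Fdft1* below it.

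A half-life, from the mean of the decay rates over 0 to 4 h and 0 to 8 h, was obtained in both genotypes for the same 3 genes. For *Insig1* it was 2.98 h in WT (interval 2.77 to 3.23) and 21.4 h in R255K cells (15.1 to 36.9), a ratio of 7.18 (4.69 to 11.0). For *Fdft1* it was 7.15 h and 24.5 h, a ratio of 3.43 (2.28 to 5.16). For *Sqle* it was 2.01 h and 3.16 h, a ratio of 1.57 (1.45 to 1.70) whose interval reaches under 1.5. All 3 ratios were over 1.5, where 68.8% of the 5504 genes with a half-life in both genotypes were, with a median of 1.98, and 0 were under 1/1.5 (5.78%). That of *Sqle* lay below this median and was under 1.5 with TMM factors (1.41), the median of ratios (1.46), the GC trend removed (1.48) and 0 to 4 h alone (1.47). The ratio of *Insig1* ranged from 4.21 (4 to 8 h alone) to 24.6 (GC trend removed). For *Fdft1* it ranged from 2.36 (TMM factors) to 5.39 (0 to 8 h alone), and no value was obtained with the GC trend removed or from 4 to 8 h alone.

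At 8 h the R255K level was over 1.5 times the WT level for 4 of the 8 genes, *Insig1* (4.18), *Sqle* (3.43), *Fdft1* (2.33) and *Scap* (2.03), where 46.7% of all genes were. The same 4 were over 1.5 at 4 h (33.9% of all genes), and 0 were under 1/1.5 at either time (9.58% of all genes at 4 h and 10.2% at 8 h). *Idi1*, at 0.491 before treatment, stood at 1.07 at 4 h and 1.44 at 8 h. *Lss* and *Hmgcs1* stood at 0.839 and 0.850 at 8 h.

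The m6A peaks on these transcripts were examined next. A peak is a region where the antibody pull-down exceeds the input, and its fold enrichment is the height at the summit over the local background. Of the 8 genes, 6 carried at least 1 WT peak on an exon, against 57.4% of all genes tested, and 4 carried an R255K peak, against 43.6%. *Insig1* and *Idi1* had no peak in either list. Of the 8 exonic WT peaks, 5 had no overlapping R255K peak (62.5%, Wilson interval 30.6 to 86.3), where 43.8% of the WT peaks on exons of all genes tested had none.

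The fold enrichments of the 8 peaks lay between 2.12 and 6.57, and 7 of the 8 were below the median of 5.91 over all such peaks. Weak peaks were unmatched more often throughout: with these peaks in 5 groups of equal size by −log10 q, 80.1% were unmatched in the weakest group, then 71.3%, 48.2%, 17.8% and 1.47% in the strongest. Of the 8 member peaks 7, the 5 unmatched and 2 of the 3 matched, lay in the weakest 3 groups. Transcript positions below refer to 1 GENCODE transcript per gene on mm10.

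Among the regulators all exonic WT peaks were unmatched. *Srebf2* had a WT peak at chr15:82203976-82204176 (fold enrichment 2.46, −log10 q 13.6), 157 nt past its last coding base in the 3′ UTR. It also had a WT peak in an intron at chr15:82147866-82148143 (9.97), with no R255K peak over it. The R255K list held another, at chr15:82147243-82147473 (2.63) around the start codon, which no WT peak overlapped. *Scap* had WT peaks at chr9:110380973-110381327 (2.62) and chr9:110384620-110384831 (3.36), both in coding sequence, the latter 75 nt before its last coding base.

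Of the mevalonate enzymes only *Hmgcs1* had a peak, at chr13:119699803-119700093 in coding sequence (3.24 in WT cells, −log10 q 38.4), and no R255K peak overlapped it. Of the sterol-committed enzymes each kept a peak. *Sqle* had one in its long 5′ UTR at chr15:59315467-59315981, with a fold enrichment of 6.57 in WT and 4.55 in R255K cells. *Fdft1* had one 134 nt past its last coding base at chr14:63146437-63146921, 4.52 in WT and 2.30 in R255K cells.

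*Lss* went both ways. Its 5′ peak at chr10:76531665-76532088 was the weakest member peak in WT cells (2.12, −log10 q 2.14), and the overlapping R255K peak had a fold enrichment of 6.52. Its 3′ UTR peak at chr10:76553158-76553413 (4.63 in WT cells) had no R255K peak over it. Of the 6318 matched peaks on genes tested, 70.5% had a lower fold enrichment in R255K cells, as *Sqle* and *Fdft1* did and the 5′ peak of *Lss* did not.

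**Figure D4:**
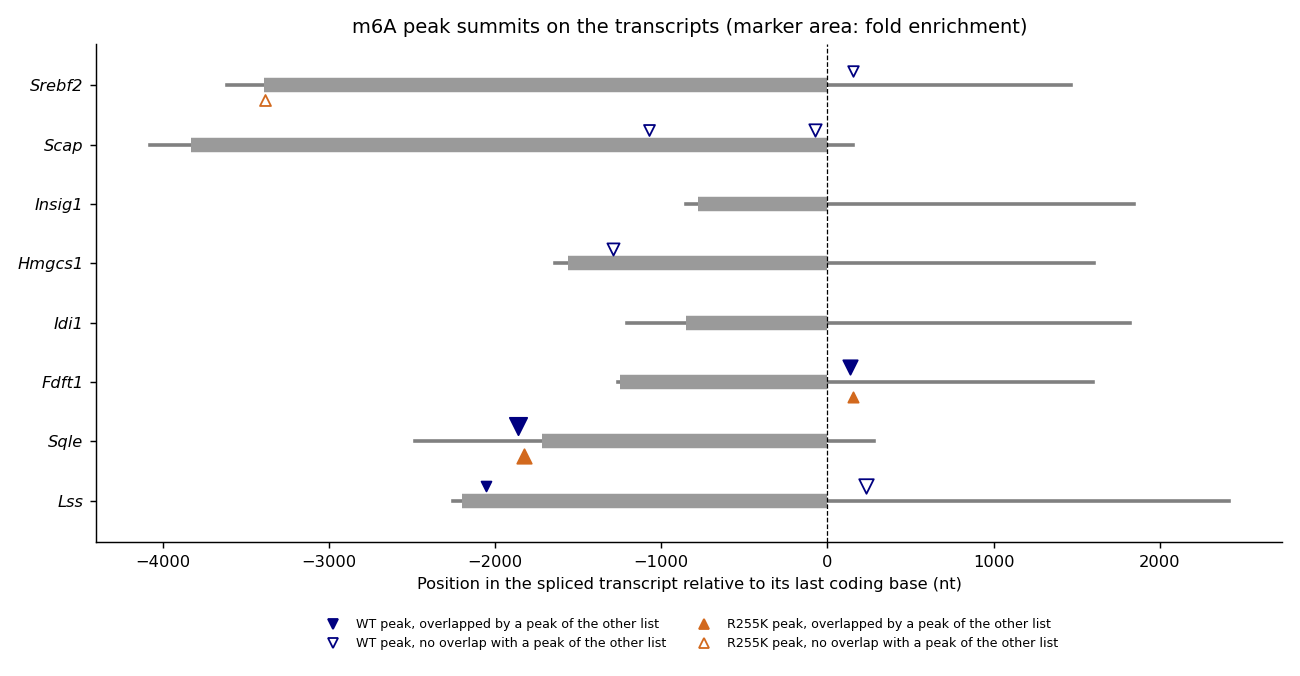
Summits of the exonic m6A peaks along 1 spliced transcript per gene, in nt from the last coding base (horizontal axis), with thick bars for coding sequence and thin bars for UTRs. Triangles above the bars are WT and those below R255K peaks, with area by fold enrichment (from 2.12 for the WT 5′ peak of *Lss* to 6.57 for the WT peak of *Sqle*), filled where a peak of the other list overlaps; the R255K peak of *Lss* (6.52) has its summit outside this transcript and is not drawn.

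The sites below are 28-base windows of mm10 (RefSeq sequence, strand of the gene) around the GGAC nearest the summit, printed with the motif in capitals because GGAC is the commonest form of the sequence that METTL3 and METTL14 methylate. All are nearest the summit of the WT peak. The first 3 belong to WT peaks that an R255K peak overlapped, and the last 3 to WT peaks that none overlapped. For *Sqle* the same GGAC was nearest the R255K summit, while for *Fdft1* and *Lss* another GGAC was.
Sqle 5′ UTR, chr15:59315723-59315750 (+): actacattttggGGACattttaatcact
Fdft1 3′ UTR, chr14:63146617-63146644 (−): gaactgagtgtgGGACctttaggaactg
Lss coding sequence, chr10:76531949-76531976 (+): ttatcaagcggaGGACgaccctggtcga
Lss 3′ UTR, chr10:76553311-76553338 (+): ggcgcagtggatGGACtcggaagctcct
Srebf2 3′ UTR, chr15:82204091-82204118 (+): ttcgggccagtaGGACcatgggcagagc
Scap coding sequence, chr9:110384708-110384735 (+): gattttggtgttGGACaatgctgccatt

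In the *Scap* window the A of GGAC lay 1 nt from the summit, and in that of *Fdft1* 11 nt from it. Within 100 bp of the summit, GGAC was found on the strand of the gene in 7 of the 8 exonic WT peaks, against 79.7% of 10769 WT peaks with a summit on an exon, and AGAC in 7 of 8, against 68.7%. GAAC was found in 4 (61.1% of all) and AAAC in 4 (50.6%). The peak without GGAC was that of *Hmgcs1*, which held AGAC, GAAC and AAAC. All 5 unmatched peaks held AGAC and 4 of them held GGAC.

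Over the whole transcript *Idi1* held the fewest GGAC, 3 in 3027 nt (0.991 per kb), and *Scap* the most, 29 in 4227 nt (6.86 per kb). *Insig1*, also without a peak, held 12 in 2697 nt (4.45 per kb). The pentamer ATTTA, the core of AU-rich decay elements, was found 4 times in the 3′ UTR of *Insig1* (1845 nt), 6 times in that of *Idi1* (1819 nt), 3 times in that of *Fdft1* (1600 nt) and 0 times in that of *Sqle* (278 nt). Of the members that ended above their 0 h level in both genotypes, *Hmgcs1* held 4, *Srebf2* 2, *Lss* 2 and *Scap* 1. Whether the count goes with the share left was not tested.

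Both members without a peak, *Insig1* and *Idi1*, had a ratio of the shares left over 1.5 (4.41 and 2.94), and of the 6 with a peak *Sqle* and *Fdft1* did. Whether the ratio goes with a peak among the 8 was not tested. Among all genes tested the medians were 0.940 for the 4647 genes without a peak in either list and 1.81 for the 7222 with one, and 1014 and 4253 of these were over 1.5.

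Promoters of SREBP2 target genes carry sterol regulatory elements, often beside a CCAAT box bound by NF-Y. Promoter windows of 250 bases before to 50 after the start site (RefSeq, GRCm38.p6) were given for 6 of the 8 genes, all but *Sqle* and *Fdft1*. The sterol element was searched in its classical form, known as SRE-1, and in the looser form TCACNCCAC, and CCAAT by itself, each on both strands. The first was found in 0 of the 6 genes (0.0913% of 32851 promoters) and the second in 1, *Hmgcs1* (1.24%). CCAAT was found in 5 of the 6 (37.4%), all but *Scap*. A match is a description of the letters and not a bound site. The window of *Hmgcs1*, 137 bases before its start, is shown because it holds the only sterol element found, in capitals.
Hmgcs1 promoter, chr13:119690205-119690232 (+): gtcaccgtcTCACCCCACttcccaggtc

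Over the 6 libraries the mean centred log2(FPKM + 1) of the 8 genes was 0.20, −0.14 and −0.52 over time in WT against 0.16, 0.17 and 0.13 in R255K cells. From this mean the single members differed by a root mean square of 0.24 (*Fdft1*) to 0.94 (*Sqle*). The 5 other genes nearest to it, picked for that from 5305 with at least 10 FPKM, were *Rbmxl1*, *Skp2*, *Nup214*, *Phc1* and *Eaf1*, at 0.056 to 0.073.

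The other genes of the pathway were taken from 4 lists, of which 50 of 54 genes passed the filter. At 0 h 11 of the 50 were over 1.5 times as high in R255K cells, where 20.8% of all genes tested were. Under 1/1.5 were 6 of the 50, where 19.5% of all genes were. The median ratio was 1.06, against 1.04 over all genes tested. At 8 h of actinomycin D the ratio of the shares left was over 1.5 for 25 of the 50, with a median of 1.55. Beside the 44.5% and the median of 1.34 of all genes, the lists together stood near the background. Differences between the lists, given below, were not tested.

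Of the 15 other sterol synthesis enzymes, 6 had a ratio of shares over 1.5. In WT cells 7 of the 15 were under 1/1.5 of their 0 h level at 8 h, where 50.3% of all genes were. Over 1.5 times their 0 h level were 3, where 19% of all genes were. *Cyp51*, which demethylates lanosterol, had 1752, 319 and 118 counts in WT against 1458, 1236 and 913 in R255K cells, and its share left at 8 h was 6.13 times as high in R255K cells. *Msmo1* and *Sc5d*, later steps of the same branch, had ratios of 4.50 and 4.78. Others of the branch were lower, with 0.771 for *Tm7sf2*, 0.777 for *Nsdhl*, 1.18 for *Ebp* and 1.499 for *Hsd17b7*. All these enzymes, like *Mvk*, *Pmvk*, *Mvd* and *Insig2* below, were picked after their values were seen.

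The enzymes named for their 0 h level were *Dhcr7* (1011 counts in WT and 2893 in R255K cells, a ratio of 3.19) and *Ggps1* (418 and 241, 0.642). *Dhcr7* encodes a reductase at the end of the pathway, and the share left at 8 h was 1.38 times as high in R255K cells for *Dhcr7* and 2.52 times for *Ggps1*. The early enzymes *Mvk*, *Pmvk* and *Mvd* had ratios of shares between 0.671 and 0.859. They ended above their 0 h level in both genotypes, like *Lss*. Early enzymes were not alike in this, as the ratio was 1.21 for *Hmgcs1* and 2.94 for *Idi1*.

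In the list for SREBP processing and turnover 9 of 12 genes had a ratio of shares over 1.5, with a median of 1.88. At 0 h *Srebf1*, which encodes SREBP1 (1435 and 2510 counts, a ratio of 1.95), and *Rnf145*, a ubiquitin ligase of the endoplasmic reticulum (2031 and 3366, 1.85), were over 1.5. *Mbtps2*, a protease that releases SREBPs (471 and 249, 0.589), and *Fbxw7*, which marks nuclear SREBPs for breakdown (895 and 420, 0.523), were under 1/1.5. *Insig2*, the relative of *Insig1*, had 324, 195 and 133 counts in WT against 348, 427 and 444 in R255K cells, and a ratio of shares of 2.05.

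In the list for uptake, transport and efflux 8 of 14 had a ratio of shares over 1.5, with a median of 2.27. At 0 h *Abca1*, the cholesterol exporter, had the smallest ratio of the list (1292 and 188 counts, 0.162), and *Lrp1* was also under 1/1.5 (0.530). *Mylip*, a ubiquitin ligase (36 and 120 counts, 3.71), *Lipa*, the lysosomal lipase (140 and 356, 2.83), and *Soat1*, which esterifies cholesterol (474 and 967, 2.27), were over 1.5.

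Fatty acid genes driven by SREBP had 2 of 9 with a ratio of shares over 1.5, with a median of 1.20. At 0 h *Me1* (370 and 712 counts, a ratio of 2.14), *Fads2* (593 and 939, 1.76) and *Fasn*, fatty acid synthase (16744 and 25538, 1.70), were over 1.5, and *Elovl6*, an elongase (2501 and 942, 0.420), was under 1/1.5. The shares left of *Me1*, *Fads2* and *Fasn* at 8 h had ratios of 0.694, 0.832 and 1.09.

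**Figure D5:**
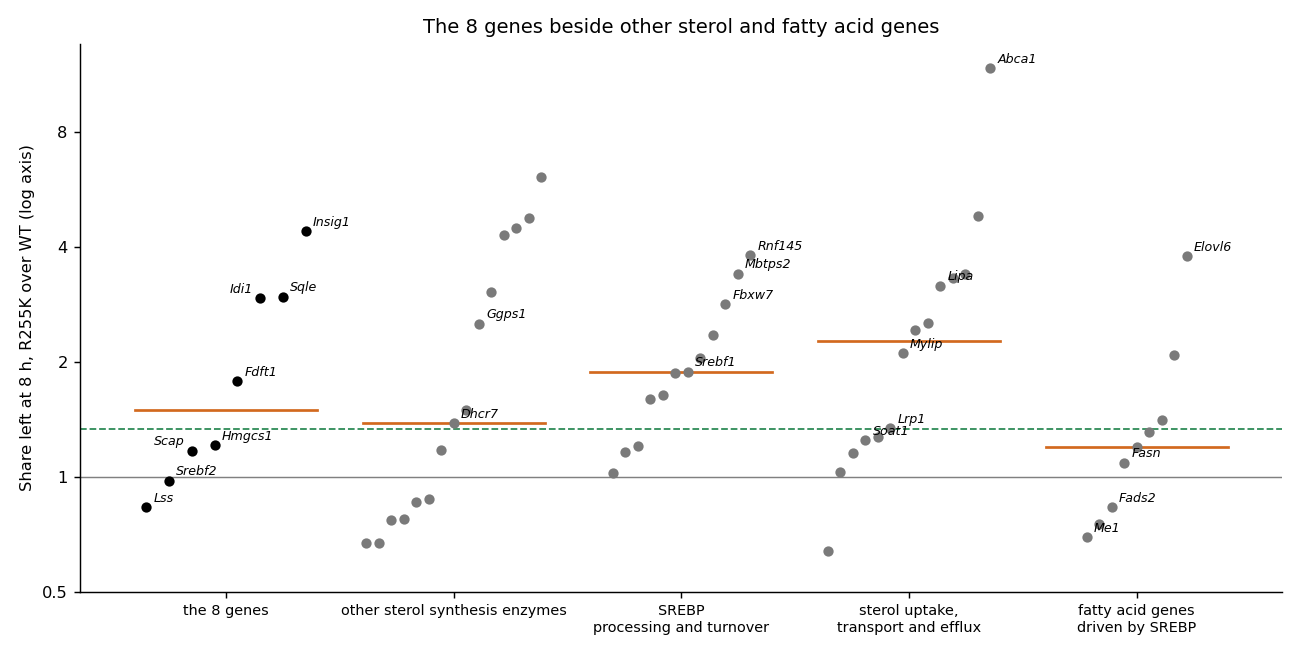
Ratio of the share left at 8 h, R255K over WT (vertical log axis), for the 8 genes (black) and for the genes of 4 other lists past the filter (grey), 1 point per gene, with each list's median as a solid line and the median of all genes tested (1.34) as a dashed line. Medians of the 4 lists are 1.38, 1.88, 2.27 and 1.20 from left to right.

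On the exons of the same lists, the share of WT peaks with no R255K peak over them was 8 of 12 for the sterol enzymes, 11 of 21 for SREBP processing and turnover, 4 of 9 for uptake, transport and efflux and 2 of 9 for the fatty acid genes, beside 5 of 8 for the members. Over all genes tested the share was 43.8%. Differences between the lists were not tested, and the strength of their peaks was not taken into account.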

How the data were processed

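Per the submitters' processing notes, reads were handled with Bowtie2 2.2.6, HISAT2, Picard 2.16.0, SAMtools 0.1.09 and, for MeRIP-seq, MACS2 on mm10. The authors deposited whole-number counts per gene, without normalization, for the 6 actinomycin D libraries, and 1 MACS2 peak list per genotype with fold enrichment, a ratio over local background, and −log10 q. The counting tool, its strand setting and the way libraries were combined for peak calling are not given in the sources used here, and the depth behind the peaks is unknown. RNA libraries were made with a NEBNext Ultra kit, and no spike-in was used for scaling here.

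Levels in FPKM divide each count by the gene length listed in the tables and by the library sum. Genes with a mean of at least 1 FPKM at 0 h were tested, and after actinomycin D any count below 3 was raised to 3. Intervals are exact Poisson for levels, exact conditional (Clopper-Pearson) for ratios of counts, and by the delta method for half-lives and ratios of shares. The GC trend is a lowess fit with a span of 0.3. Alternatives are given in the closing section. A peak was matched when a peak of the other list overlapped it by at least 1 bp. Tools were bedtools 2.31.1, Python 3.11.15 with pandas 2.3.3, numpy 2.4.6, statsmodels 0.14.6, scipy 1.17.1, matplotlib 3.10.9 and pysam 0.24.0, and, for TMM and median-of-ratios factors only, edgeR 4.0.16 in R 4.3.3. The estimates were tested on simulated data. Run over all genes, the test first missed its limits: unchanged genes with low counts or slow decay passed 1.5 too often. It was then restricted to genes with high counts at 0 h and clear decay in WT cells. Its limit on interval coverage was loosened, and both changes came after the miss was seen. The test therefore does not cover half-life ratios of members with slow or no decay. The shares called over all genes include such low-count genes. Transcripts are those of GENCODE vM21.

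Members and lists were chosen with earlier results of these data known. Named are all members, of the genes of each other list past the filter those with the largest and smallest ratio at 0 h and those past 1.5 with at least 100 counts in a 0 h library, the 5 genes nearest to the mean course, and *Mettl14* and *Gapdh* as checks. Some listed genes are counted in their lists but not reported here by name.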

Additional observations from a re-analysis of the deposited data

How the results depend on the processing

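No paired analysis was possible because each genotype and time has 1 library and each genotype 1 pooled peak list. No value changed from a call in one direction to a call in the other under the alternatives run. At 0 h the members over 1.5 numbered 1 with summed counts and 0 with the GC trend removed (20.8% and 17.2% of all genes tested). Those under 1/1.5 numbered 1 (19.5% of all genes). They numbered 2 when scaled to ribosomal protein genes (25.2%) or to genes without a peak (22.35%), where *Hmgcs1* joined *Idi1*. At 4 h the members over 1.5 numbered 4, against 2 with TMM factors, 2 with the median of ratios and 2 with the GC trend removed. At 8 h those under 1/1.5 numbered 0, against 2 with TMM, 3 with the median of ratios and 1 with the GC trend removed. For the levels at 4 and 8 h no share of all genes is given under the other scalings. For the share left at 8 h the members under 1/1.5 numbered 0, where 9.29% of all genes were. They numbered 1 with TMM (28.3%) and 1 with the median of ratios (29.3%), *Lss* in both (0.609 and 0.602). Half-life ratios over 1.5 numbered 3, where 68.8% of all genes with a ratio were over 1.5. When scaled to ribosomal protein genes they numbered 5 (81.4% of all genes with a ratio), where 5 members had one, *Srebf2* (5.155) and *Lss* (2.172) among them. With the GC trend removed they numbered 1 (67.1%), where 2 members had one. Of the 3 member WT peaks enriched 4 times or more, 2 were unmatched among R255K peaks of that height, against 5 of 8 member peaks without that threshold. These 2 were the 3′ UTR peak of *Lss* and the peak of *Fdft1*, whose R255K partner (2.30) fell below 4. No share over all WT peaks is given at this threshold. The cause of these changes was not tested, except that the stricter peak threshold leaves fewer peaks. The GC trend at 4 and 8 h and the ratio of shares left were chosen after seeing the data. With 1 library per group no replicate spread can be given, and low counts such as the 108 of *Sqle* in WT cells at 8 h widen the intervals most.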
